A study of Rattus norvegicus with 2 samples.

Results

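Replication-dependent histone genes encode the linker histones H1 and the core histones H2A, H2B, H3 and H4 that package newly copied DNA. They were picked by name from the gene symbols of the deposited tables: every symbol beginning Hist1h to Hist4h, the linker histone symbols H1f1 to H1f5, and H4f3. The names matched 27 of the 32623 genes, and the 21 with at least 20 unique molecular identifiers (UMIs, tags that count captured RNA molecules once) over both libraries are described here. By class these are 4 H1 genes, 7 of 10 H2A genes, 6 H2B genes, 1 of 2 H3 genes, 2 of 4 H4 genes and H4f3. H4f3 was kept apart because RefSeq lists Hist1h1d, an H1 name, as its synonym. The members nearest to the limit from above were Hist2h2be with 58 UMIs and Hist1h4m with 143, and the highest gene left out was Hist2h2aa3 with 2. Of the other genes left out, Hist2h3c2 had 1 UMI, and Hist2h2aa2, Hist1h2ao, Hist1h4b and Hist2h4 had 0. The symbols Hist1h2an and Hist1h2ail1 each stand for 2 gene identifiers, which are told apart by the last digits of the identifier.

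The study asked how prenatal exposure to dexamethasone, a synthetic glucocorticoid, affects microglia, the resident macrophages of the brain. The cells were flow-sorted microglia of the hippocampus from male rat embryos at gestational day 20, profiled one by one with droplet RNA sequencing. The dexamethasone library came from 7 pooled embryos exposed before birth and the control library from 7 pooled embryos that were not. The labels used here give no strain, dose or time of the exposure. With 1 library per group no test of the exposure could be made, batch and exposure cannot be told apart, and every ratio below compares these 2 libraries only.

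In most animal cells these genes are switched on at the start of S phase and their mRNAs are degraded when DNA synthesis ends. Unlike other mRNAs, theirs usually end in a stem-loop bound by the protein SLBP and not in a poly(A) tail, although polyadenylated forms of some histone genes are made in differentiated cells. The labels give the molecule as polyA RNA, so transcripts that end in the stem-loop may be captured poorly, and how much of the total histone RNA the UMIs stand for was not tested. The genes also lie in clusters of near-identical copies, so reads can be split between copies or lost, and the count of any single member is uncertain to that extent. Most H1 promoters hold an AAACACA element, and many H2B promoters an octamer, ATTTGCAT.

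Promoters of 16 of the 19 distinct member symbols were found in RefSeq's table for the GRCr8 assembly, which is newer than the assembly of the deposited counts. The 180 bases before the start were searched on both strands, and positions are counted back from the start. AAACACA was present in 3 of 4 H1 genes (H1f2, H1f4 and H1f5) and in H4f3, in none of the 4 H2A and 5 H2B promoters searched, and in 4.14% of all 33469 promoters. The octamer was present in 3 of 4 H2A and 3 of 5 H2B promoters and in no H1 promoter, against 1.1% of all promoters. CCAAT was present in 15 of 16 member promoters against 27% of all promoters, and TATAAA in 9 of 16 against 9.41%. A match describes these letters only and says nothing of whether a factor binds. Shown first are 3 linker histone genes and H4f3, which were all lower in the dexamethasone library, with the AAACACA element, the CCAAT box and the TATAAA box of either strand in capitals. Not shown are H1f1 and Hist1h3b, which hold no AAACACA and were lower as well. Their log2 ratios of dexamethasone over control were -0.90 and -0.50, so being lower was not particular to promoters with the element. Below them stand an H2A gene and the 2 H2B genes whose levels followed the cell cycle least, with the octamer, CCAAT and TATAAA in capitals. All are written 5′ to 3′ on the gene's strand.
H1f4 (chr17:41914245-41914424, plus strand): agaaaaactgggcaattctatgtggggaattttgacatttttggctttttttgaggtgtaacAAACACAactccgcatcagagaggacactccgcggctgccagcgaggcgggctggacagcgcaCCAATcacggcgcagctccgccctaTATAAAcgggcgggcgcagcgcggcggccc
H1f5 (chr17:47421695-47421874, plus strand): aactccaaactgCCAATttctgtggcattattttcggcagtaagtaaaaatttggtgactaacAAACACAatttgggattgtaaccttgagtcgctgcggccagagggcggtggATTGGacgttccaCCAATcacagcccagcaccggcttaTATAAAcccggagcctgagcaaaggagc
H1f2 (chr17:41820454-41820633, minus strand): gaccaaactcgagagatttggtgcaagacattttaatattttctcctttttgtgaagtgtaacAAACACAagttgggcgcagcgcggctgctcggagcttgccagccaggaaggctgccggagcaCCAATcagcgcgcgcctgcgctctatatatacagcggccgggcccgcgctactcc
H4f3 (chr17:41980342-41980521, minus strand): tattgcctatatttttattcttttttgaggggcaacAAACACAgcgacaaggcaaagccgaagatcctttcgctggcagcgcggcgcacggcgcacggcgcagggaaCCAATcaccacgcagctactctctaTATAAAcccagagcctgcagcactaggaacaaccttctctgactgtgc
Hist1h2ah (chr17:41812198-41812377, plus strand): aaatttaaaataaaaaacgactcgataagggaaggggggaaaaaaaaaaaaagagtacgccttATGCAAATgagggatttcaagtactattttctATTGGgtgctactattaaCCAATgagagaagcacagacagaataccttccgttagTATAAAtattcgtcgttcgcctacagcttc
Hist1h2bq (chr17:41869342-41869521, minus strand): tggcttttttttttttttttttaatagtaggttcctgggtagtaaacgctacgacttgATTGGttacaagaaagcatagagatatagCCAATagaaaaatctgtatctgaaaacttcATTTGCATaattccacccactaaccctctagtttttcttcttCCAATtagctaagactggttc
Hist3h2ba (chr10:44225241-44225420, plus strand): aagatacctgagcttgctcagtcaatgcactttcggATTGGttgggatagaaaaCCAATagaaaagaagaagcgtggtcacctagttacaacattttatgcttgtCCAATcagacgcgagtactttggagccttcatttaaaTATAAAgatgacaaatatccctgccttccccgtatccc
The AAACACA element began at -118 in H1f4, at -117 in H1f5 and H1f2 and at -144 in H4f3. In each of these 4 genes a CCAAT box followed, at -55, -53, -55 and -73. The octamer began at -63 in Hist1h2bq and, on the reverse strand, at -117 in Hist1h2ah, and was not found in the 180 bases before Hist3h2ba.

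The 4328 barcodes of the dexamethasone library carried 42611920 UMIs, and the 8342 of the control carried 69940778, with 5 barcodes in both. After filtering, 4198 and 8044 cells remained. Scrublet, a doublet caller, marked 1 of 4199 and 0 of 8044 cells, so it had not worked and doublets remain. Cells past a threshold of microglial marker UMIs and no other class's threshold, called microglia-gated, numbered 2850 (67.9%) and 5649 (70.2%). Of the microglial markers, P2ry12 had 5572 and 11698 UMIs in them and Sall1 6085 and 10773, while Siglech had 0 and 36. Their median depths were 8947.5 and 7879 UMIs, and mitochondrially encoded RNA made up 3.18% and 6.02% of UMIs.

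In microglia-gated cells the histone genes were dominated by a few members. Levels are counts per 1000000 UMIs of the same cells (CPM), not scaled for gene length, with exact Poisson 95% intervals that cover counting error only. H1f4 (ENSRNOG00000047459), a linker histone, stood at 318 CPM in the dexamethasone library (311 to 325) and 454 CPM in the control (449 to 460). Hist1h2an (ENSRNOG00000057700), an H2A gene, stood at 236 CPM (230 to 242) and 221 CPM (217 to 225). H1f5 (ENSRNOG00000060355) stood at 131 and 195 CPM, Hist1h2bq (ENSRNOG00000021198), an H2B gene, at 118 and 103 CPM, and H1f2 (ENSRNOG00000054978) at 76.5 and 104 CPM. H4f3 (ENSRNOG00000048264) followed at 57.8 and 85.7 CPM. The other 15 members lay at or below 24.8 CPM with dexamethasone and 23.6 CPM in the control. Summed by class, H1 reached 537 and 775 CPM, H2A 282 and 276 CPM and H2B 167 and 152 CPM. Little of H3 and H4 was captured: Hist1h3b, the only H3 member, had 1.65 and 2.33 CPM, and Hist2h4a and Hist1h4m together 7.96 and 7.26 CPM.

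Within the microglia-gated cells, histone UMIs were concentrated in cells that carried Top2a and Mki67, genes used here to mark cycling cells. Histone UMIs were not concentrated in cells that carried only Mcm genes, which encode the replicative helicase. Cells of at least 4000 UMIs were thinned to 4000, and the thinned UMIs of Mcm2 to Mcm7 (M) and of Top2a plus Mki67 (T) set the classes. Low/low cells had M of at most 1 and T of 0, Mcm-high only cells M of at least 3 and T of 0, both-high cells M of at least 3 and T of at least 2, and Top2a/Mki67-high only cells M of at most 1 and T of at least 2. In the dexamethasone library these held 1619, 252, 124 and 255 of 2735 cells, and in the control 3170, 332, 254 and 579 of 5176 cells. The 485 and 841 cells in between, among them 293 and 502 cells with M of 2 and 214 and 390 with T of 1, lay near the limits and belong to no class. No histone UMI was used to set the classes. Pcna, an S phase gene, was highest in both-high cells, at 404 CPM with dexamethasone and 419 CPM in the control. Top2a stood at 471 and 515 CPM in the same cells, so T of at least 2 is not read as G2 phase or mitosis alone.

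Summed over the 21 members, low/low cells stood at 361 CPM in the dexamethasone library (351 to 370) and 376 CPM in the control (369 to 383). Mcm-high only cells were no higher in the dexamethasone library, with 242 CPM (224 to 262), and stood at 343 CPM (323 to 364) in the control. Both-high cells reached 3218 CPM (3129 to 3308) and 4226 CPM (4149 to 4303). Top2a/Mki67-high only cells reached 4506 CPM (4430 to 4583) and 4563 CPM (4511 to 4615). On the log2 scale both-high cells were 3.16 and 3.49 above low/low cells, and Top2a/Mki67-high only cells 3.64 and 3.60 above them. Thinning is a random draw that the intervals do not cover: over 10 further draws Mcm-high only cells ranged from 229 to 276 CPM in the dexamethasone library and from 284 to 333 CPM in the control, and both-high cells from 3081 to 3779 and from 3630 to 4254 CPM. The control's 343 CPM for Mcm-high only cells thus lay above the range of the further draws. When cells were thinned to 2000 UMIs instead, the control's Mcm-high only cells turned from below to above low/low cells, so no direction is given for that class in the control.

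The 422 dexamethasone cells with T of at least 2 were 15.4% of cells and held 18.0% of all UMIs but 71.3% of histone UMIs (exact binomial interval 70.8 to 71.8%). In the control 950 such cells were 18.4% of cells and held 21.6% of all UMIs and 77.1% of histone UMIs (76.7 to 77.4%). The level followed the Top2a and Mki67 content in steps. In the control it went from 363 CPM at T of 0 through 1077 CPM at T of 2 and 2865 CPM at T of 4 to 5 to 7190 CPM at T of 10 or more, and in the dexamethasone library from 338 through 1293 and 2174 to 7084 CPM. The level at T of 10 or more was thus many times that at T of 0 in each library.

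**Figure D1:**
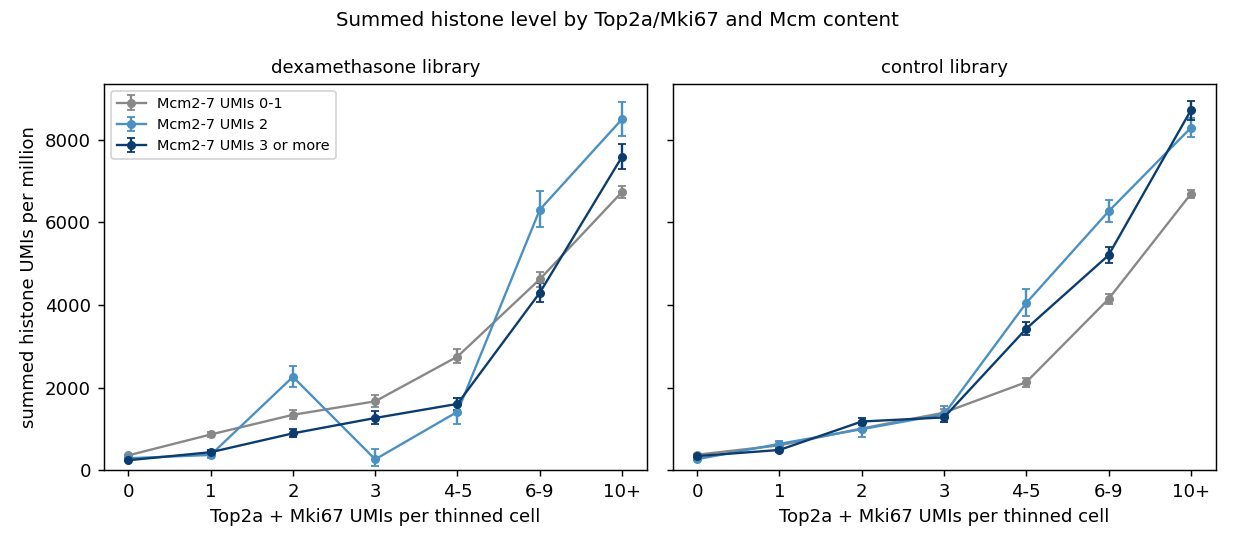
Summed level of the 21 histone genes (CPM, exact Poisson 95% bars) by Top2a plus Mki67 UMIs per microglia-gated cell thinned to 4000 UMIs, with separate lines for Mcm2 to Mcm7 UMIs of 0 to 1, 2, and 3 or more. At 0 Top2a and Mki67 UMIs all 3 Mcm lines lie between 242 and 376 in both libraries, and at 10 or more they lie between 6690 and 8716.

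Among cells with T of at least 2, the late mitotic genes (Ccnb1, Cdc20, Plk1, Cenpf and others) gave a further split. Cells with 0 to 1 UMI of these genes stood at 1251 CPM of histone genes with dexamethasone and 1915 CPM without, cells with 2 to 4 UMIs at 4797 and 4180 CPM, and cells with 5 or more at 5417 and 5594 CPM. The histone sum was therefore highest in the cells with most mitotic transcripts, in both libraries, but not every member followed it. From 2 to 4 UMIs to 5 or more, Hist1h2an (ENSRNOG00000057700) rose from 1233 to 1599 CPM with dexamethasone and from 858 to 1167 CPM in the control. H1f1 fell from 99.8 to 60.6 CPM and from 111 to 100 CPM. H1f5 fell from 981 to 775 CPM with dexamethasone and rose from 886 to 948 CPM in the control. The range over 10 further draws was 1318 to 1943 CPM and 1471 to 1851 CPM for the first of these groups. The reported values lay outside it, below with dexamethasone and above in the control, so the library difference there is not read.

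Counted gene by gene, 20 of 20 members with at least 20 UMIs in the classes compared were at least 2-fold higher in Top2a/Mki67-high only cells than in low/low cells in each library, where 6.86% (dexamethasone) and 6.59% (control) of all genes passed that fold. In both-high cells 16 of 19 (dexamethasone) and 17 of 19 (control) members did (10.5% and 9.65% of all genes). In Mcm-high only cells 0 of 15 and 2 of 15 members were higher by that fold (4.01% and 5.01%), and 3 and 2 were lower (3.26% and 3.56%). The 2 higher in the control were H1f1 at 6.08 against 1.38 CPM and H1f5 at 44.5 against 16.0 CPM. These values come from the reported draw of the thinning, whose control sum for Mcm-high only cells lay above all 10 further draws, so the 2 genes are not read further.

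The linker histone genes differed in how far they rested on cycling cells. H1f5 rose from 13.5 CPM in low/low cells to 639 CPM in Top2a/Mki67-high only cells of the dexamethasone library and from 16.0 to 739 CPM in the control, 47.2-fold and 46.1-fold. H1f1 did so from 0.998 to 51.8 CPM and from 1.38 to 66.0 CPM. In both-high cells H1f1 stood higher still, at 63.3 and 127 CPM, as did H1f5 in the control, at 915 CPM. H1f5 of the dexamethasone library (609 CPM), H1f4 (864 and 1319 CPM) and H1f2 (190 and 255 CPM) were lower in both-high than in Top2a/Mki67-high only cells. H1f4 was already at 145 and 172 CPM in low/low cells and reached 1172 and 1471 CPM, 8.08-fold and 8.54-fold. H1f2 went from 37.0 and 39.7 CPM to 291 and 359 CPM, 7.86-fold and 9.04-fold. Accordingly 89.2% and 91.6% of H1f5 UMIs lay in cells with T of at least 2, against 62.3% and 70.02% of H1f4 UMIs and 60.5% and 70.6% of H1f2 UMIs. H4f3 rose 36.5-fold and 34.5-fold, with 86.8% and 89.7% of its UMIs in those cells. H1f5 was thus close to confined to cells with Top2a and Mki67, while H1f4 and H1f2 kept a base level outside them.

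Among the H2A genes, Hist1h2an (ENSRNOG00000057700) rose from 23.5 to 1268 CPM in the dexamethasone library and from 19.8 to 935 CPM in the control, 53.9-fold and 47.3-fold. Hist1h2ah went from 4.06 to 94.1 CPM and from 2.41 to 96.9 CPM, and Hist1h2ak from 2.31 to 37.0 CPM and from 1.84 to 39.8 CPM. The other Hist1h2an entry (ENSRNOG00000056411), with 4 and 12 UMIs in low/low cells, had 81 and 144 UMIs in Top2a/Mki67-high only cells, so both entries were higher there. The H2B gene Hist1h2bo went from 4.74 to 126 CPM and from 4.39 to 87.7 CPM, and Hist1h2bd from 1.19 to 18.5 CPM and from 1.10 to 13.9 CPM. Hist1h3b, of H3, had 5 and 6 UMIs in low/low cells and 28 and 61 UMIs in Top2a/Mki67-high only cells. Hist2h4a, of H4, changed less, from 4.55 to 21.9 CPM and from 3.79 to 17.7 CPM.

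Hist1h2bq, the most captured H2B gene, followed another pattern. It stood at 103 CPM in low/low cells of the dexamethasone library, 30.6 CPM in Mcm-high only cells, 61.3 CPM in both-high cells and 302 CPM in Top2a/Mki67-high only cells. In the control the same classes had 87.4, 30.4, 83.5 and 228 CPM. It was therefore lowest in the cells that carried Mcm genes alone, in both libraries, and 32.5% and 37.3% of its UMIs lay in cells with T of at least 2. Among cells with T of 0 it went down with Mcm content from 110 CPM at M of 0 to 29.2 CPM at M of 3 to 4 in the dexamethasone library and from 92.7 to 32.2 CPM in the control. Hist3h2ba, also an H2B gene, stood at 7.43, 3.06, 10.98 and 80.7 CPM over the 4 classes in the dexamethasone library and at 10.7, 7.36, 17.6 and 50.3 CPM in the control. Neither gene reached a 2-fold rise in both-high cells (0.595-fold and 0.955-fold for Hist1h2bq, 1.48-fold and 1.65-fold for Hist3h2ba). Hist2h4a did not reach it in the dexamethasone library either, at 1.56-fold, but did in the control, at 3.57-fold.

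**Figure D2:**
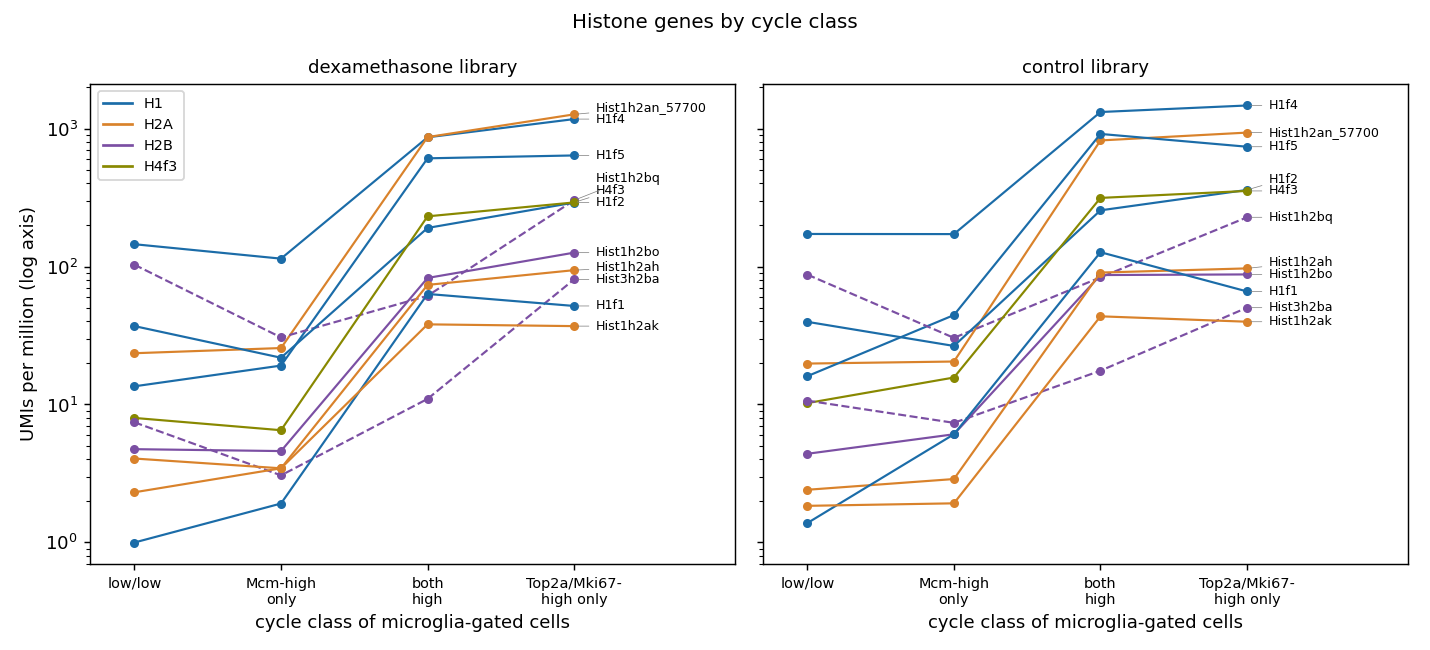
Level of each histone gene with at least 1000 UMIs over both libraries (CPM, log axis) in 4 cycle classes of microglia-gated cells, coloured by histone class; 1 point is the sum over the cells of a class. Most genes step up between Mcm-high only and both-high cells. The dashed lines, Hist1h2bq and Hist3h2ba, stay below 2-fold of low/low cells in both-high cells of both libraries. They dip in Mcm-high only cells, as does H1f2 (37.0 to 21.8 CPM with dexamethasone and 39.7 to 26.6 CPM in the control).

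Over the 14 points formed by 4 classes and 3 late mitotic groups in each library, which share cells and libraries, the genes outside the members with profiles most like their sum were LOC102548682 (Pearson r 0.99 on log2(CPM + 10)), LOC684762 (0.99), Top2a (0.98), which set the classes, Aurkb (0.98), Ttk (0.98), Cdca2 (0.98), AABR07027753.2 (0.98), Incenp (0.98), Prc1 (0.98) and Cdca3 (0.98), of 6501 genes compared. Aurkb and Incenp encode parts of the chromosomal passenger complex, Ttk a spindle checkpoint kinase and Prc1 a protein of the central spindle. The points were themselves cut by Top2a, Mki67 and the late mitotic genes, so genes of mitosis could rank high for that alone. Among members with at least 1000 UMIs in these cells, r with the sum of the others ran from 0.71 for Hist1h2bq and 0.81 for Hist3h2ba to 0.995 for H4f3. Over single thinned cells, H1 and H2A UMIs went together (r 0.85 in 2735 dexamethasone cells and 0.84 in 5176 control cells) more than H1 and H2B UMIs (0.37 and 0.38). H1 UMIs correlated with Top2a and Mki67 UMIs at 0.70 and 0.73 and with Mcm UMIs at 0.05 and 0.12.

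The genes that serve histone mRNA and histone deposition were counted in the same classes, where the shares of all genes past the fold given above, 10.5% and 9.65% in both-high and 6.86% and 6.59% in Top2a/Mki67-high only cells, hold for these lists too. Of 16 tested genes for histone mRNA transcription and processing, 6 were at least 2-fold higher in both-high than in low/low cells in each library, but 2 (dexamethasone) and 1 (control) were so in Top2a/Mki67-high only cells. Slbp, which encodes the stem-loop binding protein, stood at 47.8 CPM in low/low, 181 CPM in both-high and 62.9 CPM in Top2a/Mki67-high only cells of the dexamethasone library and at 45.9, 169 and 53.3 CPM in the control. Casp8ap2, whose product is needed for histone gene transcription, had 50.3, 196 and 82.0 CPM and 55.8, 189 and 68.9 CPM. Slbp and Asf1b were singled out after their values were seen. Of 22 chaperone and acetyltransferase genes of histone deposition, 13 (dexamethasone) and 15 (control) were at least 2-fold higher in both-high cells and 9 and 7 in Top2a/Mki67-high only cells. Not every deposition gene was highest in both-high cells: Anp32e, a chaperone of H2A.Z chosen after its values were seen, had 198 and 201 CPM there and 278 and 316 CPM in Top2a/Mki67-high only cells. In the count of the dexamethasone library Hjurp, with 0 UMIs in low/low cells, was set against a floor of 3 counts over those cells. Asf1b, an H3 and H4 chaperone, stood at 66.5 and 71.4 CPM in both-high cells against 1.37 and 1.63 CPM in low/low cells. Of 19 other S phase genes, 19 and 19 passed the fold in both-high cells and 15 and 16 in Top2a/Mki67-high only cells. Of 9 replacement histone genes, which are made outside S phase, 3 and 3 passed it in both-high cells and 5 and 5 in Top2a/Mki67-high only cells. H3f3a, which encodes an H3.3 histone, had 1458 and 1273 CPM in low/low cells and 2450 and 2129 CPM in Top2a/Mki67-high only cells, 1.68-fold and 1.67-fold.

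Between the libraries, the members did not move as a block: the 4 H1 genes and H4f3 were lower in the dexamethasone library, while the H2A and H2B genes lay on both sides of 0. The sum over microglia-gated cells was 1054 against 1298 CPM, a log2 ratio of dexamethasone over control of -0.30 (exact conditional binomial interval -0.32 to -0.28). H1 had a ratio of -0.53 (-0.55 to -0.50), H4f3 of -0.57 (-0.65 to -0.49), H2A of 0.03 (-0.01 to 0.07) and H2B of 0.14 (0.08 to 0.19). The H2A sum rests on Hist1h2an (ENSRNOG00000057700) with a ratio of 0.09 (0.05 to 0.14). The other Hist1h2an entry had -0.31 (-0.60 to -0.02), Hist1h2ah -0.28 (-0.43 to -0.14), Hist1h2ak -0.19 (-0.42 to 0.03) and the Hist1h2ail1 entries -0.40 and -0.33, so 5 of 7 H2A genes lay below 0. Of the 6 H2B genes 4 lay above 0, Hist1h2bq by most. By gene over all classes, 8 members were above 0 and 13 below, with a median of -0.28 against 0.00 for 12380 genes. At a log2 ratio of at least 0.5, 0 of 21 members were higher, where 6.74% of all genes were, and 6 were lower, where 6.73% were. The 6 were H1f1 (11.6 against 21.7 CPM, log2 -0.90), H4f3, H1f5 (-0.57), Hist1h2bl (-0.56), H1f4 (-0.52) and Hist1h3b (-0.50). At a log2 ratio of at least 1, 0 members were higher (1.9% of all genes) and 0 lower (2.47%). Several of the 6 lay close to the lower limit, and 1 member was left beyond it when each cell was weighted equally. The highest ratios were 0.31 for Hist1h4m, from 43 and 61 UMIs, 0.19 for Hist1h2bq and 0.17 for Hist1h2af.

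Part of the difference in the sum went with the share of cycling cells. Cells with T of at least 2 were 15.4% of the dexamethasone cells and 18.4% of the control cells. When the control's class shares were applied to both libraries, the ratio of the sum went from -0.31 to -0.16, that of H1 from -0.53 to -0.40, that of H2A from 0.02 to 0.20 and that of H2B from 0.13 to 0.24. Within Top2a/Mki67-high only cells the sums were 4506 and 4563 CPM, a ratio of -0.02 that took either sign over the 10 further draws (-0.09 to 0.08). In those cells, too, the classes moved apart. H1 stood at 2153 against 2635 CPM (log2 -0.29), H2A at 1485 against 1146 CPM (0.37) and H2B at 540 against 396 CPM (0.45). Over the 10 draws these ratios ranged from -0.37 to -0.21, from 0.30 to 0.52 and from 0.32 to 0.43, so each kept its sign. The H2A ratio rests mostly on Hist1h2an (ENSRNOG00000057700), which held 3772 of 4417 and 6040 of 7403 H2A UMIs there. Among the other H2A genes, Hist1h2af alone had an interval of the ratio clear of 0 (0.23 to 1.18).

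Gene by gene in Top2a/Mki67-high only cells, H1f4 had 1172 against 1471 CPM, H1f5 639 against 739 CPM, H1f2 291 against 359 CPM and H1f1 51.8 against 66.0 CPM, all 4 lower in the dexamethasone library with intervals of the ratio below 0. H4f3 was lower as well, at 291 against 353 CPM. Hist1h2an (ENSRNOG00000057700) had 1268 against 935 CPM (log2 0.44, 0.38 to 0.50), Hist1h2bq 302 against 228 CPM (0.41), Hist1h2bo 126 against 87.7 CPM (0.52), Hist3h2ba 80.7 against 50.3 CPM (0.68) and Hist1h2af 22.5 against 13.8 CPM (0.71). Not every H2A gene was higher: Hist1h2ah had 94.1 against 96.9 CPM (-0.04) and Hist1h2ail1 (ENSRNOG00000056281) 10.4 against 15.6 CPM (-0.59). At a log2 ratio of at least 0.5, 3 of 20 members were higher, where 8.2% of all genes were, and 1 was lower, where 7.69% were.

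Genes outside the members moved between the libraries as follows, in all microglia-gated cells. Of the 16 tested genes for histone mRNA, 0 were higher and 0 lower by a log2 ratio of 0.5 (median -0.04): Cpsf2 of the cleavage machinery had 80.4 against 84.5 CPM, Casp8ap2 76.3 against 78.7 CPM, Sympk a ratio of 0.42 and Hinfp, an H4 gene activator, of -0.22. Of 22 deposition genes 1 was higher and 1 lower (median -0.05). These were Hira, of the H3.3 chaperone, with 5.58 against 2.91 CPM, and Hjurp, the chaperone of the centromeric H3, with 1.75 against 3.01 CPM. The most captured deposition genes, Npm1 and Nap1l1, had ratios of 0.11 and -0.05. Of 9 replacement histones 1 was higher and 0 lower (median 0.07): H2aj had 105.9 against 52.3 CPM (log2 1.02), while H3f3a, H3f3c and H2az1 had ratios of 0.14, 0.10 and -0.44. Of 19 S phase genes 0 were higher and 1 lower (median -0.08): Rrm2, of ribonucleotide reductase, had 12.2 against 19.8 CPM, and Pcna, Dut and Gins2 had ratios of 0.04, 0.16 and 0.36. The Mcm genes that set the classes had a median of 0.22, and Top2a and Mki67 had ratios of -0.38 and -0.33. Of the late mitotic genes that split the cells, 9 of 9 tested lay below 0 and 3 were lower by a log2 ratio of 0.5 (median -0.33): Cenpf, of the kinetochore, had 184 against 271 CPM (-0.56), Cenpe, a kinetochore motor, 48.1 against 73.7 CPM (-0.62) and Cdc20, an activator of the anaphase-promoting complex, 27.8 against 40.2 CPM (-0.54). H1 genes and H4f3 were thus on the same side of 0 as Top2a, Mki67 and the late mitotic genes, and the Mcm genes were on the other; the part of the cycling genes in the histone ratios was not tested beyond the class values above.

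**Figure D3:**
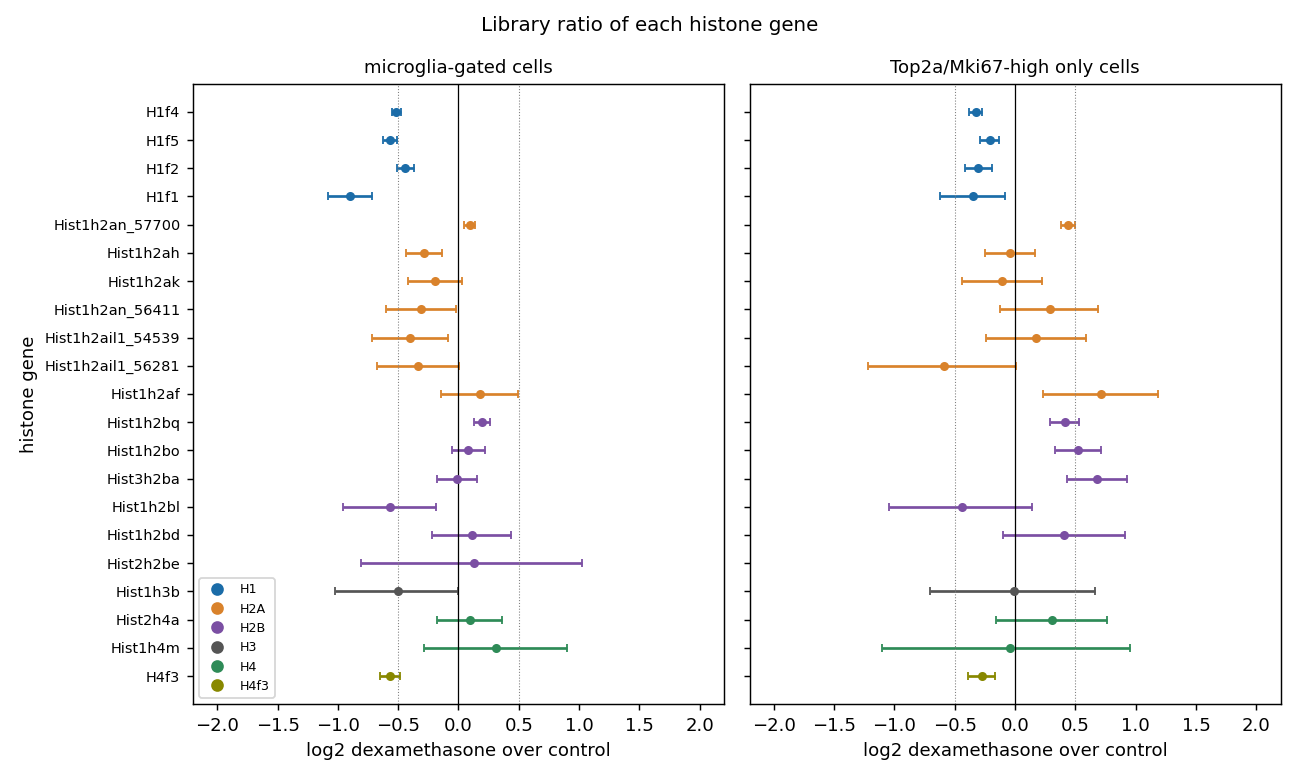
Log2 ratio of dexamethasone over control for each histone gene with its exact 95% counting interval, in all microglia-gated cells (left) and in Top2a/Mki67-high only cells (right), coloured by histone class; dotted lines mark a log2 ratio of 0.5 either way, and Hist2h2be, with too few UMIs, is not drawn on the right. The 4 H1 genes and H4f3 lie below 0 in both panels, while the H2A and H2B genes spread around 0 and reach 0.71 on the right.

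The balance between the classes can be given as 1 number, the share of H2A and H2B among the UMIs of H1, H2A and H2B. It was 45.5% in microglia-gated cells of the dexamethasone library (exact binomial interval 45.0 to 46.1%) and 35.6% in the control (35.2 to 36.0%). It was higher in the dexamethasone library in each of the 4 cycle classes: 43.4% against 36.6% in low/low, 32.8% against 23.3% in Mcm-high only, 41.8% against 32.7% in both-high and 48.5% against 36.9% in Top2a/Mki67-high only cells. It did not rest on the largest members, being 49.3% against 39.2% without H1f4 and Hist1h2an (ENSRNOG00000057700), nor on the H2B genes less tied to the cycle, being 37.0% against 28.5% without Hist1h2bq and Hist3h2ba. Nor was it limited to microglia-gated cells. Border macrophage-gated cells, the macrophages of meninges and vessels, had 40% against 32.0% and granulocyte or monocyte-gated cells 41.7% against 24.0%. Cells past no gate had 42.7% against 33.2%. They carried 5.28 and 5.32 microglial marker UMIs per 10000, below the gate of 8. Microglia may thus be among them, and they are not read as another cell type. Erythroid-gated cells went the other way, with 72.8% against 86.7%. The libraries also differ in mitochondrial RNA and in ribosomal protein RNA (14.9% against 13.2% of UMIs in microglia-gated cells), and the part of these differences in the shift was not tested.

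**Figure D4:**
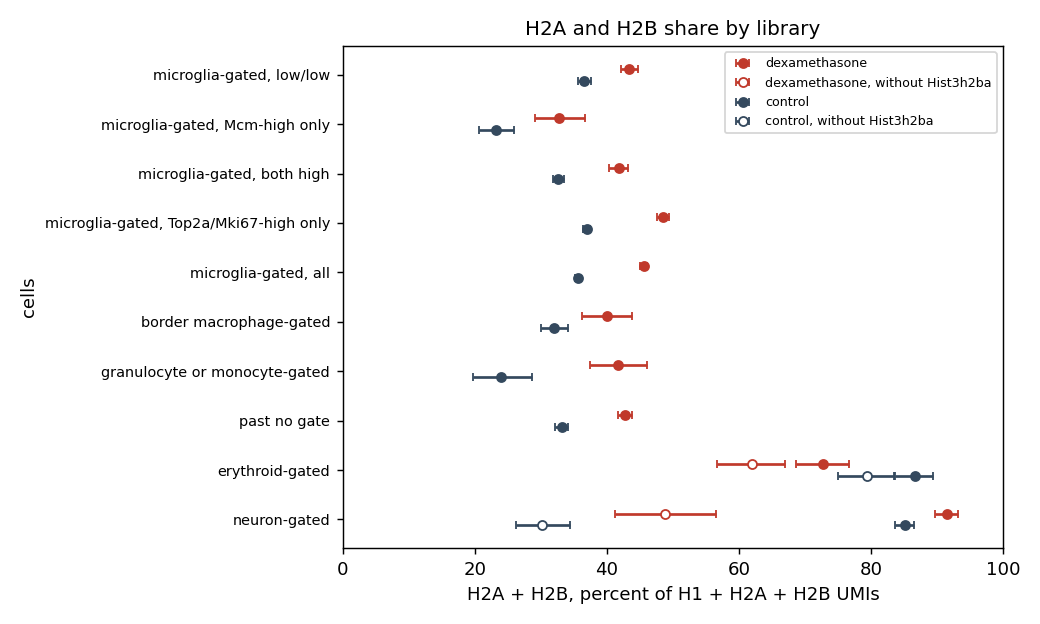
Share of H2A and H2B among H1, H2A and H2B UMIs (percent, exact binomial 95% bars) in cycle classes of microglia-gated cells and in other gated cells, by library; open points leave out Hist3h2ba. The dexamethasone library lies to the right of the control in every row drawn except the erythroid-gated cells, where it is at 72.8% against 86.7%.

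Across gated cell types, histone genes were most captured, apart from progenitors, in neuron-gated cells, and there most of it was 1 gene. The neuron-gated cells, 76 with dexamethasone and 302 control cells, are few and stand beside a microglia sort. Their histone sum was 2010 CPM (1891 to 2135) and 1940 CPM (1864 to 2018). Hist3h2ba (ENSRNOG00000043419) alone stood at 1669 CPM (1560 to 1783) and 1515 CPM (1448 to 1584) there, 83.0% and 78.1% of their histone UMIs, against 16.7 and 16.8 CPM in microglia-gated cells. After thinning to 4000 UMIs, 45 of 46 dexamethasone and 107 of 110 control neuron-gated cells carried a Hist3h2ba UMI (97.8% and 97.3%; 90.8% and 75.5% unthinned over all depths). In border macrophage-gated cells, taken as background, 0.943% of 106 and 0.719% of 278 thinned cells did, and 1.77% and 3.49% unthinned. Other gated types had higher thinned shares. These were 1.61% and 1.49% in granulocyte or monocyte-gated, 4.86% and 5.93% in microglia-gated and 19% and 19.2% in erythroid-gated cells. Unthinned, the erythroid-gated shares were 47.5% and 57.9%. Median depths were 5988 and 1997 UMIs in neuron-gated and 9132 and 7890 UMIs in border macrophage-gated cells. Only 1 thinned neuron-gated cell per library had T of at least 2, and without it the level was 1700 and 1585 CPM. In neurons, unlike in microglia, Hist3h2ba was thus high in cells without Top2a or Mki67. The H1 sum in neuron-gated cells was 169 and 288 CPM and the H2A sum 53.2 and 44.9 CPM, below the microglia-gated sums.

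**Figure D5:**
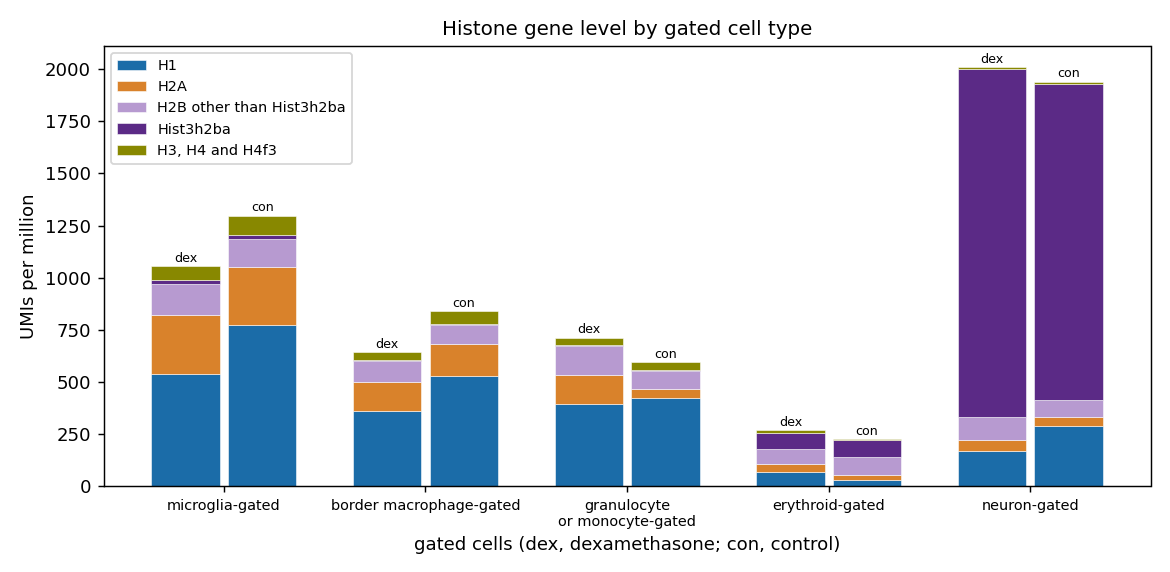
Level of the histone genes (CPM) in 5 gated cell types of the dexamethasone (dex) and control (con) libraries, stacked by class with Hist3h2ba drawn apart. The neuron-gated bars reach 2010 and 1940 and are mostly Hist3h2ba, while H1 is the largest part of the microglia-gated bars.

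Border macrophage-gated cells (113 and 315) stood at 644 CPM (597 to 693) and 839 CPM (805 to 874) and granulocyte or monocyte-gated cells (66 and 72) at 713 CPM (654 to 775) and 594 CPM (537 to 655), with H1f4 the leading gene in both. Erythroid-gated cells (101 and 126) had the lowest CPM, at 268 (245 to 292) and 226 (208 to 245), at median depths of 18205 and 21538.5 UMIs. Erythroid markers, among them the globins, held 5611 and 6431 of each 10000 UMIs there, which lowers the CPM of every other gene. Levels without the marker UMIs are not given, so the rank of these cells is not read. The largest members in erythroid-gated cells were Hist3h2ba (72.1 and 77.6 CPM) and Hist1h2bq (70.6 and 82.6 CPM), the 2 H2B genes least tied to the cycle classes in microglia. Under a filter of at most 10% mitochondrial UMIs and at least 500 genes the erythroid values became 779 and 306 CPM, so the library difference in these cells depends on the filter. In the few cells gated as neural progenitors or glia, 8 and 38, the sum was 4141 and 5953 CPM. With T of at least 2, border macrophage-gated cells reached 2554 CPM in 16 dexamethasone cells and 4171 CPM in 25 control cells, against 263 and 351 CPM at T of 0.

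At least 3 histone UMIs per thinned microglia-gated cell were found in 29.3% of the dexamethasone library (27.6 to 31.0%) and 32.3% of the control (31.0 to 33.6%). Thinning dropped 115 and 473 cells for lack of depth. Counting UMIs in full, the shares were 55.3% and 54.0%, in the other order. In erythroid-gated cells, taken as background, 10 of 100 and 11 of 125 thinned cells did (10% and 8.8%), and 33.7% and 46.8% unthinned. Erythroid markers held 5611 and 6431 of each 10000 UMIs in those cells, so fewer of the 4000 were left for other genes. The thinned share was 84.7% and 82.4% in Top2a/Mki67-high only cells, 62.1% and 65.4% in both-high, 20.6% and 22.2% in low/low and 10.3% and 12.95% in Mcm-high only cells. The 10% of microglia-gated cells with most thinned histone UMIs held 66.7% of them (dexamethasone) and 68.1% (control).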

How the data were processed

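The deposited files hold 1 matrix of raw UMI counts per library, made by the authors with Cell Ranger 7.0.0 on Rnor_6.0, per the submitters' processing notes; the annotation is not given in the sources used here. Members and gene lists were chosen with earlier results of these data known. Cells needed 200 genes or more and no more than 20% mitochondrial UMIs, Scrublet (scanpy 1.11.5) calls were removed, and cells were gated on marker UMIs per 10000, with cells past 2 thresholds (330 and 826) left out as ambiguous and those past none (650 and 679) given apart. Counts were summed over cells, scaled to CPM and given with exact Poisson, binomial or conditional binomial 95% intervals (scipy 1.17.1, numpy 2.4.6, pandas 2.3.3, Python 3.11.15; plots with matplotlib 3.10.9), which cover counting error only. Genes with at least 20 UMIs in the cells compared were counted. A difference between libraries was counted from a log2 ratio of 0.5 and between classes from 2-fold. Cycle classes came from UMIs after thinning to 4000 per cell. Named are, by a rule, the 4 members with most UMIs in each histone class, the 3 highest and 3 lowest library ratios among members with at least 100 UMIs, from each other list the 2 genes with most UMIs and the 2 with the largest ratio, and the 10 genes most like the members' sum with at least 1000 UMIs; the gating lists are given in less detail, and any other name was chosen after its values were seen. The 7 pooled embryos of a library cannot be separated. Calculations were tested on simulated data. Alternatives changed the cell filter, doublet removal, gates, scaling, thinning and class limits.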

Additional observations from a re-analysis of the deposited data

Results flagged for a closer look

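Granulocyte or monocyte-gated cells had a log2 ratio of dexamethasone over control of 0.26 (0.07 to 0.45) for the summed histone genes, and erythroid-gated cells of 0.25 (0.07 to 0.42), against -0.30 in microglia-gated cells. Both stand out because their sign is opposite to that of microglia-gated cells, in 66 and 72 granulocyte or monocyte-gated and 101 and 126 erythroid-gated cells. Of 546 and 401 granulocyte or monocyte histone UMIs, 191 and 61 lay in 4 and 3 cells with T of at least 2. Of 520 and 585 erythroid ones, 211 and 73 lay in 3 and 3 such cells. At T of 0 the libraries were near equal in granulocyte or monocyte-gated cells, at 518 and 515 CPM. Erythroid-gated cells at T of 0 were lower with dexamethasone, at 160 and 183 CPM. The share of H2A and H2B among H1, H2A and H2B UMIs differed by -13.9 percentage points between the libraries in erythroid-gated cells, against 9.95 points in microglia-gated cells. With 1 library per group these differences between cell types were not tested.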

How the results depend on the processing

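Of 188 values under an alternative, for 31 results, 99 moved within their counting interval (counts of members, within 1.5 times), 84 moved further and 5 changed sign; where a value changed, the cause was not tested. Pairs of values are dexamethasone and control. Settings chosen after the data were seen are the left-out members, the barcodes of both libraries left out, 6 further histone genes listed under newer symbols added, the further draws of the thinning, and every setting of the H2A and H2B share and of Hist3h2ba. With the stricter cell filter, erythroid-gated cells had 779 and 306 CPM. With the cells of highest Scrublet score removed, the library log2 ratio was -0.35 for the sum, -0.44 in both-high, -0.069 in Top2a/Mki67-high only cells and -0.20 at the control's class shares; 60.8% of dexamethasone histone UMIs lay in both-high and Top2a/Mki67-high only cells, the latter were 3.65 above low/low cells in the control (log2), and control border macrophage and granulocyte or monocyte-gated cells had 771 and 536 CPM. With the stricter microglia gate, the ratio was -0.27 for the sum, -0.55 in both-high, 0.011 (sign changed) in Top2a/Mki67-high only cells and -0.11 at control shares, 2 members were lower, and the H2A and H2B share was 43.5% and 35.1%. Over low/low cells both-high cells were then 2.62 and 3.07, Top2a/Mki67-high only cells 3.88 and 3.77 and control Mcm-high only cells -0.34 (log2), with 53.6% and 59.9% of histone UMIs in the first 2 classes, and 26.3% and 30.0% of cells holding 3 or more. Without a gate the ratio was -0.26, 3 members were lower, and the share was 46.1% and 36.9%. With a mean over cells the ratio was -0.24 and 1 member was lower. At a log2 ratio of 1, 0 were lower. With thinning to 2000 UMIs, the ratio was 0.15 (sign changed) in both-high cells and -0.10 at control shares; over low/low cells Mcm-high only cells were -0.39 and 0.47 (sign changed in the control), both-high 3.44 and 3.27 and Top2a/Mki67-high only 3.75 and 3.76, with 57.5% and 60.9% of histone UMIs in the latter 2, and 15.3% and 17.1% of cells holding 3 or more. With stricter class limits, the ratio was -0.068 in both-high, 0.17 (sign changed) in Top2a/Mki67-high only cells and -0.23 at control shares; over low/low cells both-high were 3.30 and 3.33, and in the control Mcm-high only -0.019 and Top2a/Mki67-high only 3.41, with 35.1% and 31.5% of histone UMIs. Without thinning 55.3% and 54.0% of cells held 3 or more histone UMIs, and with thinning 69.9% and 73.4% held at least 1. At 2 times the marker thresholds, border macrophage-gated cells had 454 and 499 CPM, control granulocyte or monocyte-gated cells 504 CPM, and Hist3h2ba in microglia-gated cells 12.3 and 15.2 CPM. Without H1f4 and Hist1h2an, the H2A and H2B share was 49.3% and 39.2%, and over low/low cells Mcm-high only cells were -0.90 and -0.29, dexamethasone both-high 2.95 and Top2a/Mki67-high only 3.43 and 3.55. Without Hist1h2bq and Hist3h2ba the share was 37.0% and 28.5%. Over 10 further draws of the thinning, the ratio ran from -0.091 to 0.078 in Top2a/Mki67-high only cells (sign changed) and up to -0.066 in both-high cells and -0.10 at control shares. Over low/low cells, dexamethasone Mcm-high only cells ran from -0.70 to -0.41, both-high from 3.06 to 3.32 and Top2a/Mki67-high only from 3.55 to 3.74, control Mcm-high only down to -0.43, both-high down to 3.28 and Top2a/Mki67-high only up to 3.68. The share of histone UMIs in the latter 2 classes ran from 56.8 to 62.8% and from 61.5 to 65.6%. The H2A and H2B share was higher in the dexamethasone library under every setting run. No paired analysis was possible because each group is 1 library of pooled embryos. Leaving out the shared barcodes gave a library ratio of -0.30 for the sum, and adding the 6 genes one of -0.29. Depth limits Hist2h2be, which had too few UMIs for each class comparison. For Mcm-high only cells of both libraries, Hist1h3b, Hist1h4m, Hist1h2bl, Hist1h2an (ENSRNOG00000056411) and Hist1h2ail1 (ENSRNOG00000054539) had too few as well. So did Hist1h3b for both-high cells with dexamethasone and Hist1h4m for those of the control.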
